A study of Homo sapiens with 6 samples.

Results

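Glycolysis and the transcriptional response to low oxygen were followed through 39 genes in MDA-MB-231 cells, a human line grown from metastatic breast cancer that lacks the estrogen and progesterone receptors. The genes were taken by symbol and role: 17 glycolytic enzymes, 4 glucose and lactate transporters, 3 regulatory kinases of glucose use, 2 alpha subunits of the hypoxia-inducible factors (HIF), 2 prolyl hydroxylases that sense oxygen and 11 other HIF targets. Of the 39, 35 had a probe set annotated to that gene alone, and they held 119 of the 49293 probe sets tested on the array. A probe set is a group of short oligonucleotides that reads a stretch of a transcript. The brightest of its probe sets, by the mean of the 6 arrays, stood for each gene, which gave 18132 genes in all.

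CTCF-OE cells had been stably infected with a lentivirus that carries the full-length CTCF coding sequence in the vector GV358, and NC cells with a negative control lentivirus. Bulk RNA of 3 samples of each kind was read on 6 PrimeView expression arrays (Affymetrix), and the labels name no low oxygen treatment in either group. Nothing in the sources used here says whether the samples of a group were grown as separate cultures, and the spread behind the p-values, which is that between these samples, may be technical. The question addressed here is whether the mRNA of glycolysis and of the HIF pathway differed between CTCF-OE and NC cells, and whether the glycolytic enzymes differed in the same way as the other HIF targets.

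CTCF, the DNA-binding protein that the lentivirus was meant to raise, read 399, 388 and 399 in the arrays labelled CTCF-OE, against 463, 442 and 489 in the NC arrays. Its only probe set was thus lower in all 3 arrays labelled CTCF-OE, with a log2 fold change of -0.23 (SE 0.0451, adjusted p = 0.0575, limma), which is the opposite direction to the label. The groups are therefore called by their labels, and directions are given for the arrays labelled CTCF-OE relative to the NC arrays. Where in the transcript this probe set lies is not given in the sources used here, and outside the coding sequence it would not read the transgene, so its reading does not settle whether a label is wrong. Array medians ran from 83.32 to 84.5. All 5 markers of mesenchymal breast cancer lines that were measured (VIM, CD44, AXL, CAV1 and MSN) lay above the array medians, at 3364 to 14200. Of the luminal markers, 4 of 7 (ESR1, PGR, FOXA1 and CDH1) lay below the medians. The others lay above them: KRT19 at 3361 to 3512, EPCAM at 414 to 504 and GATA3 at 327 to 359. Of the markers of leukocytes and endothelium, 4 of 5 lay below the medians and PECAM1 above, at 107 to 118. In all, 0 markers of any list passed the test. Over all genes, 386 of 18132 (2.13%) had an adjusted p under 0.05, 133 of them higher and 253 lower in the arrays labelled CTCF-OE.

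In glycolysis, glucose is phosphorylated, rearranged and cleaved, and the resulting triose phosphates are oxidised to pyruvate with a net yield of ATP. Many tumor cells carry pyruvate on to lactate even when oxygen is at hand. HIF is a pair of an oxygen-labile alpha subunit and the stable beta subunit ARNT. With oxygen, prolyl hydroxylases mark the alpha subunit for destruction through the VHL ubiquitin ligase. Without it, the pair binds a short core sequence and switches on glucose transporters, most glycolytic enzymes, angiogenic factors and regulators of mitochondrial removal. The alpha subunits are controlled largely as proteins, so the mRNA of their targets is the usual sign of their activity.

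The core that HIF binds is spelled ACGTG or GCGTG, and it was searched on both strands of the promoter windows that RefSeq gives on GRCh38.p14, each with 250 bases before and 50 after a start site. It was present in 23 of 37 windows of the glycolytic enzymes (62.2%) and in 9 of 9 windows of the other HIF targets, against 17012 of all 35116 windows (48.4%). Those 9 windows belonged to 8 genes, including CA9, which is not among the measured members. Windows of 1 gene can overlap, as those of KDM3A did, and a match describes the letters, not a bound site. The windows shown here are those of CA12 as the only member whose difference passed the test, EPAS1 as the alpha subunit with the larger difference, and LDHA and PGK1 as enzymes with 4 core stretches each. Capitals mark the core on either strand, where CACGT and CACGC are the reverse complements, and overlapping matches are joined.
CA12: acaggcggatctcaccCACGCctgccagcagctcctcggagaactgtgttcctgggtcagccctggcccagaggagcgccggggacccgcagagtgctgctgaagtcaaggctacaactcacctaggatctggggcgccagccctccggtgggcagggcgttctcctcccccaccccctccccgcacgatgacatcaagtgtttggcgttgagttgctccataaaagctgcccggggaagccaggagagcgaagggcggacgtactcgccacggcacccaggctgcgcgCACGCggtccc
EPAS1: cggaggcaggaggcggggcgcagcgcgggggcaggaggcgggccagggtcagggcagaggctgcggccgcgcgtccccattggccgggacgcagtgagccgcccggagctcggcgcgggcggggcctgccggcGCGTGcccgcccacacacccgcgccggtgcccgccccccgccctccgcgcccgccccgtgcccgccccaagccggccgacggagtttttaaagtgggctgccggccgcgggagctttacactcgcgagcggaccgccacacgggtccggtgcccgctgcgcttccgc
LDHA: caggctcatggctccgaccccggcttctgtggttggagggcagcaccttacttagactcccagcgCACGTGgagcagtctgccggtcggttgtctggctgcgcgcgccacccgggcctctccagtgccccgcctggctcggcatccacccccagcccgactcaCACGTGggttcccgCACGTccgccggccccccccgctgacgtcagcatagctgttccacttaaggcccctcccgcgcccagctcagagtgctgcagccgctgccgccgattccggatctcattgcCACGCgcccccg
PGK1: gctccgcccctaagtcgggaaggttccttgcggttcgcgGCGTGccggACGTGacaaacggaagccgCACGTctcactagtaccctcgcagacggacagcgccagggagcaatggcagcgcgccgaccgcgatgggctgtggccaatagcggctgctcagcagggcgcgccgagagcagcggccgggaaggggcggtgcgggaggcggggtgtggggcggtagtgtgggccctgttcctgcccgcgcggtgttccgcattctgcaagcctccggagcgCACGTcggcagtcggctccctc
The CA12 window (chr15:63381797-63382096, minus strand) held 2 stretches, both GCGTG, the farther of them 234 bases upstream of the start. The EPAS1 window (chr2:46297157-46297456, plus strand) held 1, also GCGTG, 117 bases upstream. The LDHA window (chr11:18394313-18394612, plus strand, 1 of 2 listed for the gene) and the PGK1 window (chrX:78103998-78104297, plus strand) each held 3 stretches with ACGTG and 1 with GCGTG alone, and in LDHA the stretches 185 and 87 bases upstream were the palindrome CACGTG. There was no entry for SLC2A3, SLC16A1, VEGFA, NDRG1 and BNIP3L.

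Of the 35 measured members, 1 rose in the arrays labelled CTCF-OE, where 0.734% of all genes rose, and 0 fell, where 1.40% of all genes fell. The gene that rose was CA12, a membrane carbonic anhydrase that disposes of metabolic acid. With the study's further limit of 1.3-fold, 0 of the 35 measured members passed, against 0.546% of all genes. SLC2A3, SLC16A1, SLC16A3 and CA9 are not among the 35, so these counts say nothing about them. At an unadjusted p under 0.05 there were 4 higher and 4 lower members, against 17.2% of all genes. The 2 groups of arrays did not overlap in 16 members, against 24.7% of all genes. Of these 9 were higher and 7 lower, against 11.4% and 13.3% of all genes. The members also varied less between arrays, with a median SD on the log2 scale of 0.018 in the arrays labelled CTCF-OE and 0.042 in the NC arrays, against 0.047 and 0.064 over all genes, and its part in the share of separated groups was not tested. The share of members called, 1 of 35, lay near that over all genes (2.13%). With 3 arrays against 3 an exact permutation test cannot give a two-sided p below 0.1, so the calls rest on limma, which shares the spread between genes. The median log2 fold change of the members was 0.017, against 0.0002 over all genes. In 33 of the 35 (94.3%) the 95% interval of the difference lay wholly inside a 1.3-fold change in either direction, as it did for 93.9% of all genes. In bulk RNA a lower share of expressing cells and less RNA per cell cannot be told apart.

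**Figure D1:**
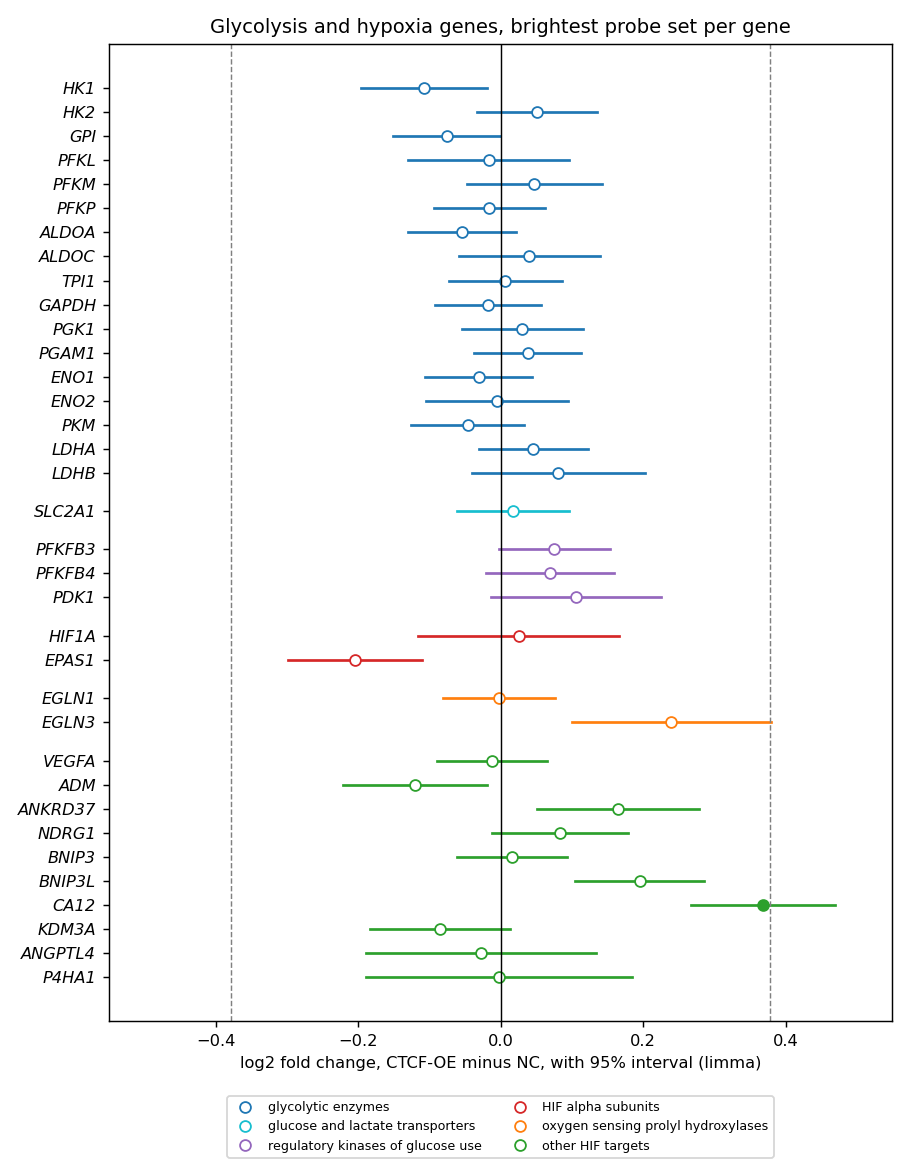
Log2 fold change of each measured member (CTCF-OE minus NC, horizontal axis) with its 95% interval from limma, ordered by role. The filled point (CA12) has an adjusted p under 0.05, the dashed lines mark a 1.3-fold change, and all 17 enzyme intervals lie between the dashed lines.

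The glycolytic enzymes and the other HIF targets covered ranges of different width. All 17 enzymes were measured, and 0 passed the test. Their log2 fold changes ran from -0.11 (HK1) to 0.081 (LDHB) with a median of -0.0046, 8 above 0 and 9 below, and all 17 intervals excluded a 1.3-fold change, the outermost bounds being -0.20 and 0.20. Of the 11 other HIF targets 10 were measured, and they ran from -0.12 (ADM) to 0.37 (CA12) with a median of 0.0072, 5 above 0 and 5 below. The median size of the difference, whichever its sign, was 0.041 in the enzymes, 0.084 in the other targets and 0.058 over all genes. The enzymes also scattered less among arrays with the same label. Log2 values of the enzymes had a median SD of 0.014 (CTCF-OE) and 0.027 (NC), against 0.025 and 0.056 for the other targets. Mean intensities in the arrays labelled CTCF-OE ran from 185.5 (ALDOC) to 15980 (LDHA) in the enzymes. In the other targets they ran from 147.8 (ANGPTL4) to 4335 (BNIP3). The part of scatter or of brightness in the different widths was not tested. The groups did not overlap in 6 of 17 enzymes (2 higher, 4 lower) and in 6 of 10 other targets (4 higher, 2 lower), against 24.7% of all genes (11.4% higher, 13.3% lower). No test of the 2 lists against each other was made, and the 10 other targets include the gene that sets the upper end of their range. Without the array NC 2 the enzyme median was 0.025 and that of the other targets 0.034.

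**Figure D2:**
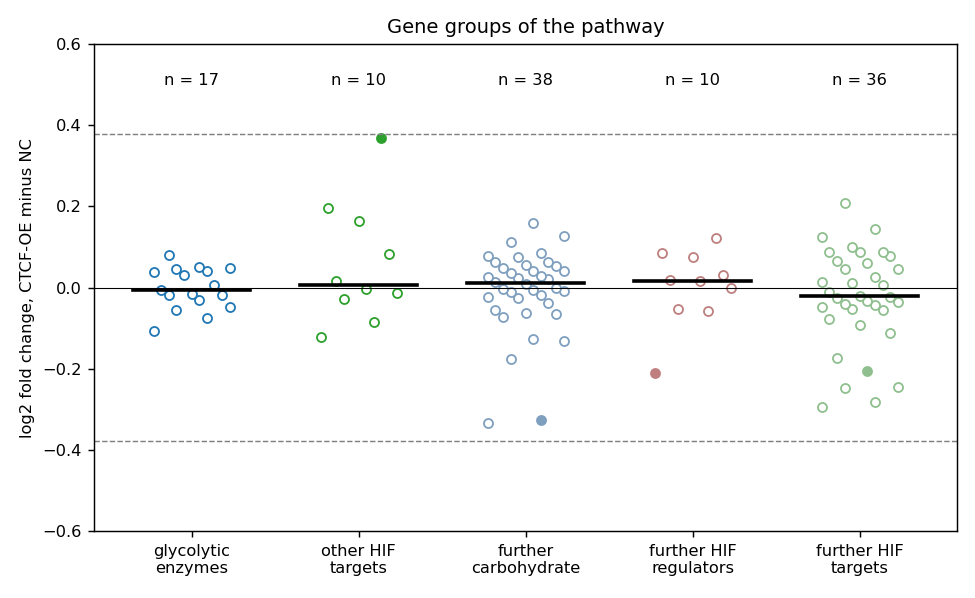
Log2 fold changes (CTCF-OE minus NC, vertical axis) of the measured genes of 5 lists, 1 point per gene, with the list median as a black bar and a 1.3-fold change as dashed lines. The medians of the 5 lists lie between -0.022 and 0.018, and the filled points (CA12, HKDC1, CITED2 and BHLHE40) are the genes with an adjusted p under 0.05.

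SLC2A1 (GLUT1), the main glucose transporter of most cell lines, read 2746, 2747 and 2789 in the arrays labelled CTCF-OE, against 2667, 2771 and 2746 in the NC arrays. The groups overlapped, and the difference of 0.017 (log2 scale) had a 95% interval of -0.062 to 0.096. The other probe sets of SLC2A1 gave -0.024, -0.0037 and 0.079, each with overlapping groups. The neuronal type glucose transporter SLC2A3 was read only by 5 probe sets shared with SLC2A14, whose folds were 0.957 to 1.03 with adjusted p of 0.509 or more. The lactate transporters SLC16A1 and SLC16A3 are not analysed here.

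HK1, the hexokinase of most tissues, which traps glucose in the cell, had the largest difference among the enzymes. It read 2708, 2717 and 2797 in the arrays labelled CTCF-OE, against 2871, 3043 and 2943 in the NC arrays. All 3 arrays labelled CTCF-OE were below the lowest NC array, a log2 fold change of -0.11 (SE 0.0373) with an adjusted p of 0.214. The 4 probe sets of HK1 lay between -0.088 and -0.13, and in each of them the groups did not overlap. HK2, the hexokinase that hypoxia is known to induce, differed by 0.051 with an interval of -0.034 to 0.13, and its groups overlapped. The other probe set of HK2 gave -0.031, also with overlapping groups. GPI, which turns glucose 6-phosphate into fructose 6-phosphate, read 2233, 2239 and 2260.3 in the arrays labelled CTCF-OE, against 2337, 2394 and 2365 in the NC arrays, so that the groups stood apart by a small distance (-0.076, SE 0.0314, adjusted p = 0.285).

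Phosphofructokinase makes the committing step of glycolysis, and its liver (PFKL), muscle (PFKM) and platelet (PFKP) subunits differed by -0.017, 0.047 and -0.016 with overlapping groups. The other probe sets of PFKL gave -0.043 with overlapping groups and 0.10 with groups that did not overlap. ALDOA, the aldolase that cleaves fructose 1,6-bisphosphate, read 6577, 6545 and 6632 in the arrays labelled CTCF-OE, against 6800.0, 6954 and 6761 in the NC arrays. These did not overlap, yet the log2 fold change was -0.054 and its adjusted p 0.444. The brain aldolase ALDOC differed by 0.041, with its 5 probe sets all above 0 (up to 0.18). TPI1, which interconverts the triose phosphates, differed by 0.0068.

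In the lower arm, GAPDH, which oxidises glyceraldehyde 3-phosphate and is widely used as a reference, read 13826, 14093 and 13918 in the arrays labelled CTCF-OE, against 13970.0, 14204 and 14180.0 in the NC arrays. The groups overlapped, with a difference of -0.018 and an interval of -0.092 to 0.057. PGK1, the first ATP-forming enzyme and the gene of the last promoter shown above, read 8237, 8281 and 8323 in the arrays labelled CTCF-OE, against 8192, 8289.6 and 7845 in the NC arrays, which overlapped. All 9 of its probe sets lay above 0, at 0.021 to 0.084, and none passed the test (adjusted p of 0.418 or more, fit over all probe sets). PGAM1, which moves the phosphate of 3-phosphoglycerate, differed by 0.038 with groups that did not overlap, whereas ENO1 and ENO2, the enolases, differed by -0.031 and -0.0046 with groups that did.

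PKM, pyruvate kinase, and LDHA, which reduces pyruvate to lactate, lay on opposite sides of 0. PKM read 4404.5, 4249 and 4395 in the arrays labelled CTCF-OE, against 4477, 4465 and 4531 in the NC arrays, and its 6 probe sets ran from -0.046 to -0.17. LDHA read 16108, 15876 and 15959 in the arrays labelled CTCF-OE, against 15763, 15268 and 15412 in the NC arrays, and its 4 probe sets ran from 0.044 to 0.066. In both genes the groups of the brightest probe set did not overlap, with log2 fold changes of -0.046 (adjusted p = 0.537) and 0.046 (adjusted p = 0.530). LDHB, the lactate dehydrogenase subunit that favours pyruvate formation, read 6308, 6251 and 6156 in the arrays labelled CTCF-OE, against 5926, 5522 and 6266 in the NC arrays, where a wide NC group overlapped the other (0.081, adjusted p = 0.479).

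**Figure D3:**
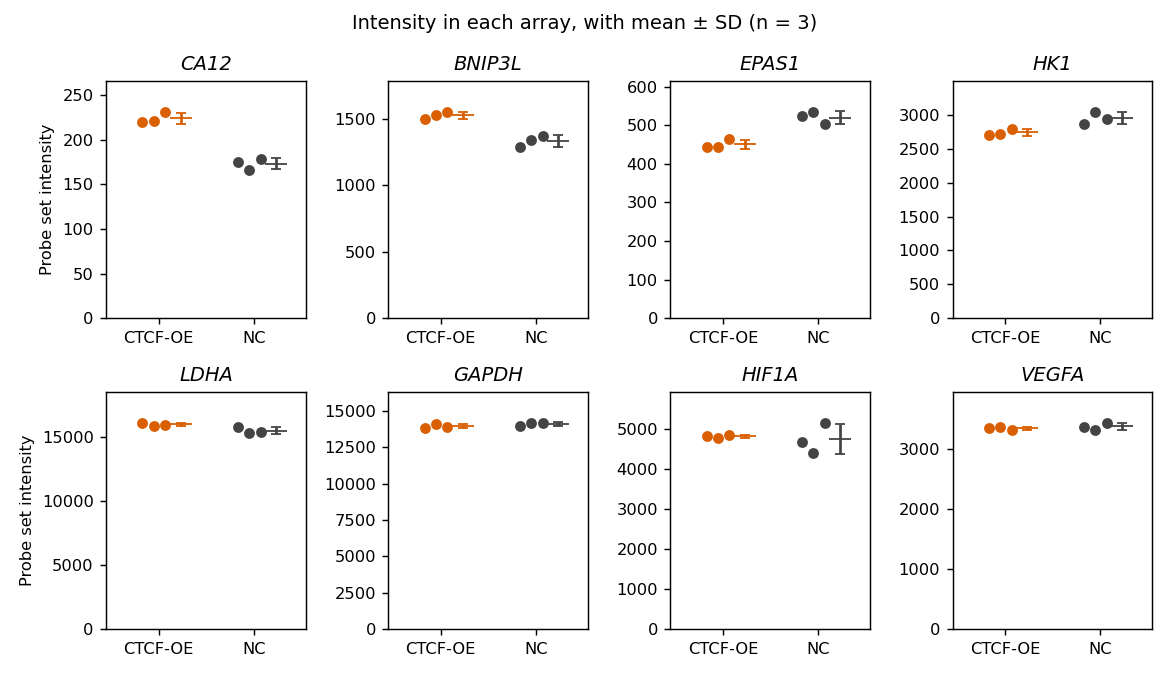
Probe set intensity (linear scale from 0) of 8 members in each array, as points, beside the mean and SD of the group (n = 3), with the arrays labelled CTCF-OE at the left of the NC arrays. CA12 and BNIP3L lie higher and EPAS1 and HK1 lower in all 3 arrays labelled CTCF-OE, LDHA is separated by a small margin, and GAPDH, HIF1A and VEGFA overlap.

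The 3 regulatory kinases all lay above 0. PFKFB3, whose product fructose 2,6-bisphosphate activates phosphofructokinase, read 970.6, 966 and 987 in the arrays labelled CTCF-OE, against 909, 929.9 and 937 in the NC arrays (0.075, SE 0.0326, adjusted p = 0.302). Its relative PFKFB4 differed by 0.069 and PDK1, which inhibits pyruvate dehydrogenase by phosphorylating it, by 0.11. The groups of PFKFB3 and PFKFB4 did not overlap and those of PDK1 did, and each of the 3 intervals reached below 0. The probe sets of both PFKFB genes lay on both sides of 0, since the 4 of PFKFB4 ran from -0.11 to 0.069 and those of PFKFB3 from -0.036 to 0.088. The other probe set of PDK1 gave 0.002 with overlapping groups.

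Among the HIF alpha subunits, HIF1A read 4839.7, 4782 and 4853 in the arrays labelled CTCF-OE, against 4675, 4415 and 5163 in the NC arrays. The NC arrays enclosed the other group, and the interval of the difference ran from -0.12 to 0.17. The other 7 of its 8 probe sets lay below 0, at -0.037 to -0.10, and none of them passed the test. In several of these 7, the one at -0.10 among them, the groups did not overlap. EPAS1 (HIF2A), the alpha subunit known from endothelium and kidney cancer, read 445, 444 and 464 in the arrays labelled CTCF-OE, against 523, 534 and 502 in the NC arrays. All 3 arrays labelled CTCF-OE were below the lowest NC array, with a log2 fold change of -0.20 (SE 0.0396, interval -0.30 to -0.11) and an adjusted p of 0.0574, just outside the threshold. Its other probe set gave -0.12 with overlapping groups.

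Of the prolyl hydroxylases, EGLN1 (PHD2), the main oxygen sensor, differed by -0.0018 with an interval of -0.080 to 0.077. EGLN3 (PHD3), which HIF itself induces, read 104, 90.1 and 100.3 in the arrays labelled CTCF-OE, against 81.5, 85.6 and 81.4 in the NC arrays. The lowest array labelled CTCF-OE was above the highest NC array, with a log2 fold change of 0.24 (SE 0.0588, interval 0.0997 to 0.38, adjusted p = 0.101). The other probe sets of EGLN3 gave 0.15 and -0.049, each with overlapping groups.

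CA12 read 219.6, 222 and 231 in the arrays labelled CTCF-OE, against 175, 166 and 179 in the NC arrays. Every array labelled CTCF-OE was above every NC array, with means of 224 ± 6.28 in the arrays labelled CTCF-OE and 173 ± 6.54 in the NC arrays (SD, n = 3 each). The log2 fold change was 0.37 (SE 0.0425, interval 0.27 to 0.47), with an adjusted p of 0.0119 from limma. The fold of 1.29 fell short of 1.3, or 0.3785 on the log2 scale, and this side of the limit turned on the processing. Under quantile normalization the log2 fold change was 0.380 (adjusted p = 0.00857) and without NC 3 it was 0.391 (adjusted p = 0.0341), both past the limit. In the fit over all probe sets, 3 of its 5 probe sets rose (0.37, 0.37 and 0.21), and they were the only ones of the members' 119 that passed the test, where 2.08% of all probe sets passed and 0.803% rose. None of the 119 passed with the 1.3-fold limit added, against 0.637% of all probe sets. The 2 others gave 0.32 (adjusted p = 0.0740) and 0.055 (adjusted p = 0.897), the last from a probe set with overlapping groups at intensities of 20.6 to 32.1. The call was lost when CTCF-OE 1 (adjusted p = 0.0607), CTCF-OE 2 (0.0661), CTCF-OE 3 (0.0621) or NC 1 (0.0550) was left out and held without NC 2 (0.0383) or NC 3 (0.0341), and the log2 fold change stayed between 0.34 and 0.39. Its relative CA9, the carbonic anhydrase most used as a marker of hypoxia, is not analysed here.

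Among the control probe sets of the array, the 6 for ribosomal RNA all read lower in the arrays labelled CTCF-OE, with log2 fold changes down to -0.38 (adjusted p = 0.00551), and in 5 of the 6 the groups did not overlap. The ratio of the 3′ to the 5′ control probe set of GAPDH, a measure of RNA integrity, was 0.936, 0.923 and 0.925 in the arrays labelled CTCF-OE, against 0.937, 0.937 and 0.938 in the NC arrays. The part of either in the difference of CA12 or of the members below was not tested.

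BNIP3 and BNIP3L (NIX) are related mitochondrial proteins that mark mitochondria for removal. BNIP3L read 1502, 1529.8 and 1554 in the arrays labelled CTCF-OE, against 1288, 1346 and 1371 in the NC arrays. The groups stood apart in this and in each of its other 5 probe sets, which lay between 0.088 and 0.23, and the log2 fold change of 0.20 (SE 0.0381, interval 0.11 to 0.29) had an adjusted p of 0.0578. BNIP3 differed by 0.017 with an interval of -0.061 to 0.094 and overlapping groups. The difference between the relatives was not tested.

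ANKRD37, a small ankyrin repeat protein and HIF target, read 218.7, 220.5 and 238 in the arrays labelled CTCF-OE, against 194, 202 and 208 in the NC arrays, groups that did not overlap (0.16, SE 0.0479, adjusted p = 0.149). Its other probe set gave 0.022 with overlap. NDRG1, a stress-induced gene that many tumor cells raise in hypoxia, differed by 0.084 (adjusted p = 0.346), its groups stood apart, and its 6 probe sets all lay above 0, at 0.034 to 0.085.

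Other targets lay near or below 0. ADM, the vasodilator peptide adrenomedullin, read 992, 1013 and 1005 in the arrays labelled CTCF-OE, against 1078, 1049.5 and 1147 in the NC arrays, which did not overlap (-0.12, SE 0.0424, adjusted p = 0.219). Its other probe sets gave -0.22 and -0.036. KDM3A, a histone demethylase, differed by -0.085 with groups apart (adjusted p = 0.350), but 1 of its 3 probe sets gave 0.040. VEGFA, the angiogenic factor, read 3357, 3359 and 3320.5 in the arrays labelled CTCF-OE, against 3362, 3323 and 3438 in the NC arrays, overlapping groups with an interval of -0.089 to 0.064. Of its 10 probe sets, 9 lay below 0, the lowest at -0.14 (adjusted p = 0.139), and in 6 the groups did not overlap.

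ANGPTL4, a secreted inhibitor of lipoprotein lipase, and P4HA1, which hydroxylates collagen, had the widest spread. P4HA1 read 1002, 1004 and 949 in the arrays labelled CTCF-OE, against 1001, 879 and 1090.5 in the NC arrays, with the NC arrays both highest and lowest. Its interval ran from -0.19 to 0.18 and that of ANGPTL4 from -0.19 to 0.13. The SD on the log2 scale was larger among the NC arrays in 27 of the 35 members (77.1%), as it was in 63.8% of all genes.

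**Figure D4:**
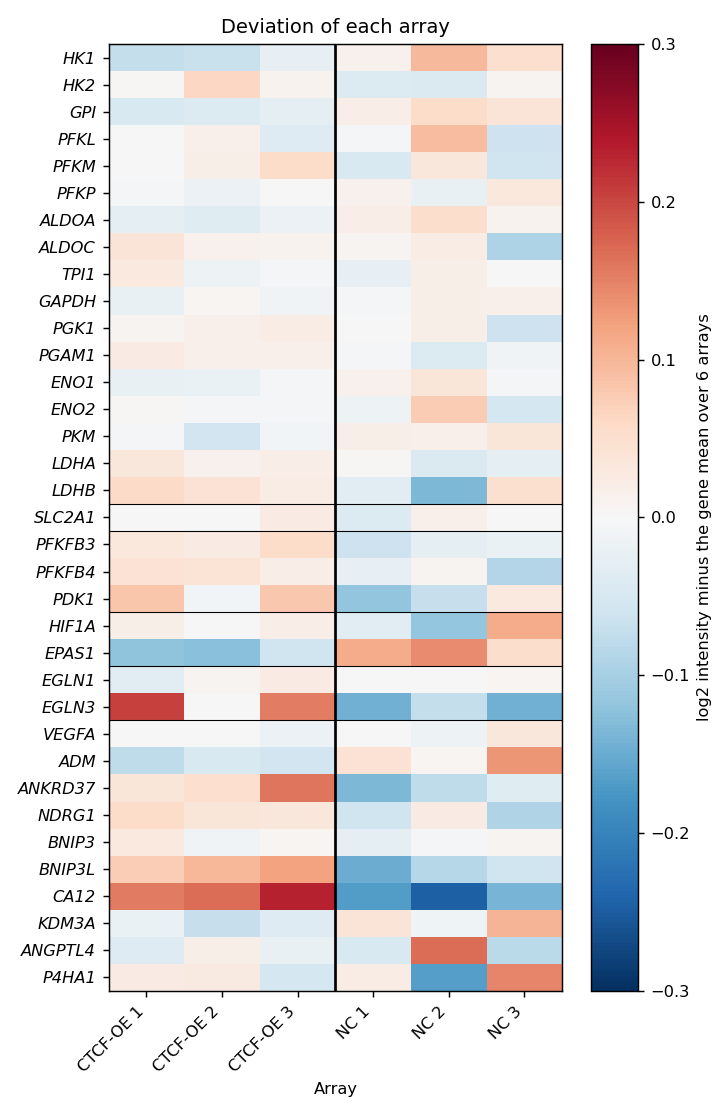
Log2 intensity of each member in each array minus the mean of that gene over the 6 arrays (colour scale from -0.3 to 0.3), with the arrays labelled CTCF-OE left of the thick line and horizontal lines between the roles. CA12 and BNIP3L are red on the left and blue on the right, as is EGLN3 except in CTCF-OE 2, which is near 0, EPAS1 and HK1 the reverse, and most glycolytic enzymes are pale in all 6 arrays.

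The probe sets of a gene could not be placed along its transcript, and only their directions were compared. The groups of arrays stood apart in 58 of the 119 probe sets, against 24.4% of all probe sets, with 31 higher and 27 lower, against 11.6% and 12.8%. Of 20 members with 3 or more probe sets, 7 had all of them above 0 and 3 all below, and 34.8% of 6995 such genes on the array had all on 1 side. Those above were ALDOC, PGK1, PGAM1, LDHA, NDRG1, BNIP3L and CA12, and those below were HK1, PKM and ADM. Probe sets of a gene can share oligonucleotide targets and come from the same RNA, so they are not replicates. Over all 50 probe sets of the enzymes the range was -0.17 to 0.18 and 0 passed the test.

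**Figure D5:**
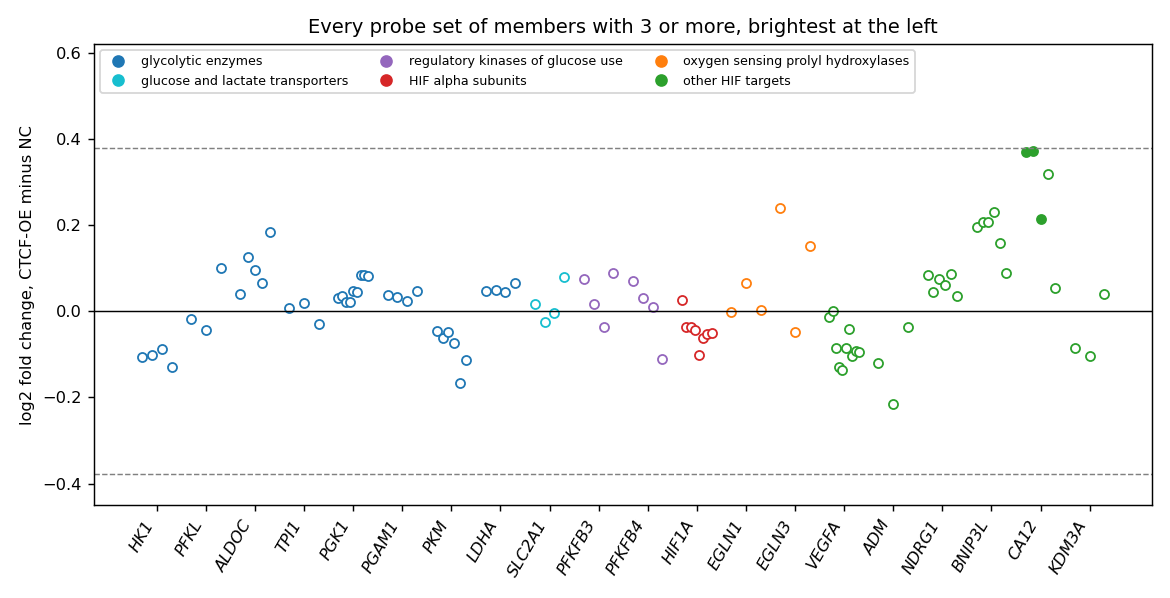
Log2 fold change (CTCF-OE minus NC, vertical axis) of every probe set of the 20 members with at least 3, 1 point each, from the brightest at the left to the dimmest at the right of each gene. Filled points (3, all of CA12) have an adjusted p under 0.05 over all probe sets, dashed lines mark a 1.3-fold change, and HK1, PKM and ADM lie wholly below 0.

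The neighbouring parts of the pathway were read through 89 further genes, of which 84 were measured. Among them 0 rose and 3 fell, against 1.40% of all genes that fell, with a median log2 fold change of 0.0040. Of 38 measured genes of glycolysis and adjoining carbohydrate metabolism (minor isoenzymes, the pentose phosphate pathway, glycogen and the pyruvate dehydrogenase complex) 1 fell, HKDC1, a hexokinase-like protein encoded beside HK1. It read 347, 359.96 and 351.1 in the arrays labelled CTCF-OE, against 436, 432 and 460.1 in the NC arrays, a log2 fold change of -0.33 (SE 0.0392, adjusted p = 0.0132), and its other probe sets gave -0.24 and -0.27. Both hexokinase genes lie on the plus strand of chromosome 10, with their nearest RefSeq start sites 49.7 kb apart, and both read lower, HK1 without passing the test. The call of HKDC1 was lost without CTCF-OE 1 (adjusted p = 0.0835), CTCF-OE 2 (0.0661), CTCF-OE 3 (0.0710) or NC 1 (0.0554).

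Of 10 measured regulators of HIF 1 fell, CITED2, which competes with the alpha subunits for the coactivator p300 and is itself a HIF target. It read 2298, 2212 and 2180.5 in the arrays labelled CTCF-OE, against 2602, 2506 and 2626 in the NC arrays (-0.21, SE 0.0382, adjusted p = 0.0489). Of 36 measured further HIF targets 1 fell, BHLHE40 (DEC1), a transcriptional repressor that HIF induces. It read 259.5, 252 and 256 in the arrays labelled CTCF-OE, against 286, 296 and 303 in the NC arrays (-0.21, SE 0.0368, adjusted p = 0.0469). In both genes the groups did not overlap, and both calls were lost whichever array was left out, with adjusted p of 0.0790 to 0.184 for CITED2 and of 0.0839 to 0.182 for BHLHE40. Both were also lost when each array was centred on its median (adjusted p = 0.0631 for CITED2 and 0.0575 for BHLHE40). The medians of the 3 lists were 0.012, 0.018 and -0.022, and the genes above and below 0 numbered 43 and 41.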

How the data were processed

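The authors deposited 1 linear intensity per probe set and array, already brought to near equal distributions. Their software and normalization are not given in the sources used here. Because the values were linear and not already log2, log2(intensity + 1) was taken, as the plan laid down. The 102 control probe sets were left out, and limma 3.58.1 (R 4.3.3) was fitted to 49293 probe sets and to 18132 genes, two-sided, with Benjamini-Hochberg adjustment over all features. Probe sets with 1 symbol in the platform annotation numbered 44988, with several 1832 and with none listed 2473. Precision is limited by 3 arrays per group. Probe sets of enzymes with close copies or pseudogenes may read those too.

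Members and lists were chosen with earlier results of these data known. Named are all members, the further genes past the threshold with the largest changes (at most 8) and CTCF. Others named were chosen after their values were seen. Alternatives changed 1 choice at a time. The same numbered arrays did not deviate together, with correlations of 0.012, 0.005 and 0.009. Procedures were tested on simulated data, where small changes, and also changes beyond 1.3-fold, were called only in part. A member that did not pass may thus still differ. The pass mark of that test was lowered after its result was seen, with the procedure unchanged. Figures were drawn with matplotlib 3.10.9 (Python 3.11.15).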

Additional observations from a re-analysis of the deposited data

How the results depend on the processing

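Of 702 values of single genes under the alternatives, 640 stayed on their side of the threshold, 30 lost the call, 32 gained it and 0 called values changed sign. Another 29 changed sign with neither value called, and these are among the 640. CA12 was called in 12 of 18 alternatives, BNIP3L in 7, EPAS1 in 5, and HK1, GPI, EGLN3 and ADM in 2 each. The 18 include looser thresholds, an adjusted p under 0.1 and the methods' t-test without adjustment, so these tallies do not come from changed processing alone. The counts below are given as all genes, members, further genes and member probe sets. They were 830, 3, 7 and 10 with log2(intensity + 16), 1449, 7, 13 and 20 with a variance trend on intensity, 880, 3, 8 and 10 at an adjusted p under 0.1, and 2996, 12, 25 and 39 with the methods' t-test without adjustment. They were 99, 0, 0 and 0 with the added 1.3-fold limit, and 114, 0, 0 and 0 with the unadjusted methods' t-test and that limit, an alternative chosen after seeing the data. Quantile normalization gave 2 members, 5 further genes and 5 member probe sets, leaving out the dimmest 20% gave 3, 6 and 6, and the adjusted methods' t-test gave 1 further gene. The mean of the probe sets per gene gave 622 genes, 2 members, 9 further genes and a median of 0.026 for the other HIF targets. The median probe set gave 0 members (CA12 at 0.21, adjusted p = 0.0540) and a median of -0.016 for the enzymes. CTCF passed the threshold at -0.22 with log2(intensity + 16) and at -0.23 under quantile normalization, without the dimmest 20%, with the trend, with the unadjusted methods' t-test, with the mean of the probe sets and at an adjusted p under 0.1. Centring on the median, or adding the control probe sets (chosen after seeing the data), moved no count by over 1.5 times. With the centring, however, the further genes called were 2, of which 1 (HKDC1) was among the 3 named, and CITED2 and BHLHE40 were lost. The cause of these changes was not tested.

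Leaving out 1 array in turn gave 67 to 170 genes, 0 to 1 members, 0 to 2 further genes and 0 to 2 member probe sets. CTCF ranged from -0.27 to -0.20, the enzyme median from -0.013 to 0.025 and that of the other HIF targets from -0.0043 to 0.042. The sign of the enzyme median thus rests on single arrays. The replicate number pairs nothing in the labels, and with it as a block the counts were 54 genes, 0 members (CA12 at an adjusted p of 0.0644), 0 further genes and 0 member probe sets, on fewer residual degrees of freedom.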

Other observations

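In the fit over all probe sets, 3 of the 236 probe sets of the further genes rose and 3 fell, where 2.08% of all probe sets passed, 0.803% higher and 1.27% lower. Those that fell were 2 of the 3 probe sets of HKDC1 (-0.33, adjusted p = 0.0163, and -0.24, adjusted p = 0.0322) and 1 of the 2 of CITED2 (-0.29, adjusted p = 0.0173). Those that rose were of LOX and WSB1, which were chosen after their values were seen. LOX, a secreted enzyme that crosslinks collagen and a known HIF target, had 6 probe sets, all above 0. The groups did not overlap in 5 of them, and 2 rose, with log2 fold changes of 0.20 (adjusted p = 0.0482) and 0.23 (adjusted p = 0.0377). The first of these read 192, 198 and 201 in the arrays labelled CTCF-OE, against 172, 172 and 170.4 in the NC arrays. The brightest LOX probe set gave 0.13 (adjusted p = 0.212) and did not pass.

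WSB1, a subunit of a ubiquitin ligase and a HIF target, had 7 probe sets, of which 1 rose, by 0.51 (SE 0.0567, adjusted p = 0.0114). It read 131, 138 and 144 in the arrays labelled CTCF-OE, against 91.8, 102.5 and 95.04 in the NC arrays, whereas the brightest WSB1 probe set differed by 0.0077 with overlapping groups. Where in the transcript these probe sets lie is not given in the sources used here.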
